A study of Mus musculus with 9 samples.

Results

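The comparison set 4T1 cells that received both MRC nanoparticles and red light against 4T1 cells that received neither, across every gene. 4T1 cells are a mouse line grown from a mammary tumour of the BALB/c strain. The control cells were kept in fresh DMEM medium and are named PBS after the label of their group. The treated cells, named MRC+L, were exposed to the nanoparticles for 12 h and irradiated with a 660 nm laser for 3 min. The labels give the irradiance as 180 with the unit mW/cm2 in one field and mV/cm2 in another, they do not spell out MRC, and they do not say when the light was given within the 12 h. RNA libraries of 3 PBS and 3 MRC+L samples were used, 6 of the 9 libraries of the series, and the 3 libraries with nanoparticles and no light were left out. The 2 groups differ in the particles and in the light together, so the parts of the 2 in any difference cannot be told apart here. The labels do not say whether the replicates were separate cultures, so the p-values rest on the spread among these 6 samples, and that spread may be technical.

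Photodynamic treatment uses a dye that, once excited by light, passes energy or electrons to oxygen and forms reactive oxygen species inside the cell. Cells answer oxidants, misfolded proteins and damaged organelles with separate transcription programmes. NRF2 is released from its partner KEAP1 by electrophiles and switches on glutathione and thioredoxin genes. HSF1 switches on cytosolic chaperones. The endoplasmic reticulum sends the unfolded protein response through ATF6, IRE1 with XBP1, and PERK, and PERK is one of the kinases that raise the factor ATF4. Pyroptosis, which the title of the series names, is a lytic death in which caspases cut gasdermin proteins into fragments that open pores in the plasma membrane. Most of that step happens on proteins, so RNA levels show the supply of its components and not the cutting.

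The 6 libraries held 15019765 to 18998399 counts and detected 18999 to 20514 genes each. A gene with 0 counts in a library can have a level of up to 3 counts there, or 0.156 to 0.201 CPM by library, which covers counting error only. CPM are counts scaled to a common library size. Levels below are CPM with library sizes adjusted by TMM factors. They are not divided by gene length, so they compare samples for 1 gene and not genes with each other. The MRC+L libraries lay close together, with a biological coefficient of variation (the spread between replicates beyond counting noise, as a share of the level) of 0.0579. In PBS it was 0.279, and 0.115 without PBS replicate 2. PBS replicate 2 stood apart by gene length: its short genes read high and its long genes low, with a trend of 0.936 on the log2 scale against -0.297 to 0.0742 in the other 5 libraries. The median log2 fold change of MRC+L against PBS ran from -0.35 in the tenth of genes with the shortest exons to 0.34 in the tenth with the longest. Without PBS replicate 2 these medians were -0.05 and 0.16. Counts over all genes are therefore given with and without that library, and the count of a list is given again for each left-out library that moved it by more than 1.5 times. The share of all tested genes called moved too, from 19.2% without MRC+L replicate 2 to 55.3% without PBS replicate 2. A moved list count can therefore follow the calls over all genes and need not be particular to the list.

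**Figure D1:**
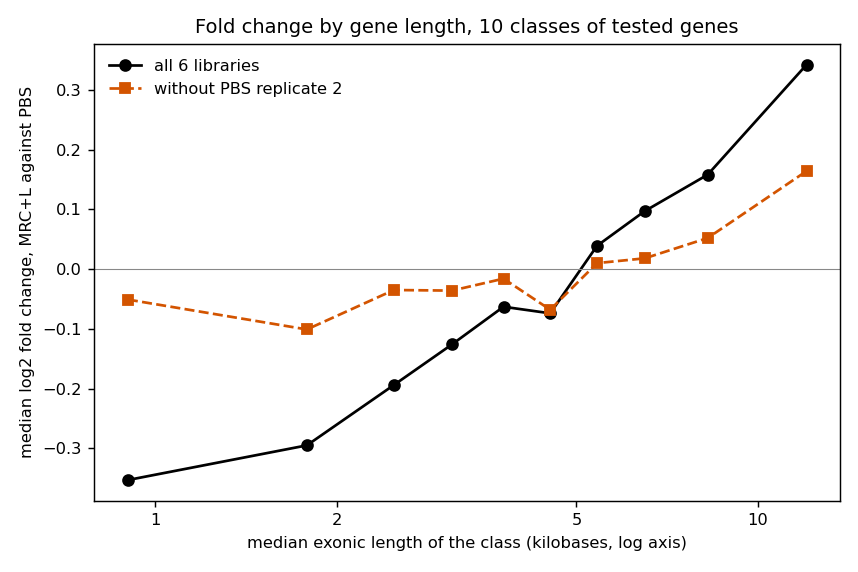
Median log2 fold change of MRC+L against PBS in 10 classes of tested genes ordered by exonic length (kilobases, log axis), with all 6 libraries (black) and without PBS replicate 2 (orange). The black line climbs from -0.35 to 0.34, and the orange line spans from -0.10 to 0.16.

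The cell label was checked against marker genes. The keratins Krt8 and Krt18 were abundant, at 564 to 901 and 402 to 820 CPM in PBS. The defining epithelial genes Epcam, Cldn7 and Cldn4 lay at 0 to 0.311, 0 to 0.249 and 0.156 to 0.249 CPM in PBS, and Cdh1, the epithelial cadherin, at 3.81 to 5.15 CPM. Epcam and Cldn7 were at or near the detection limit, which goes against an epithelial reading of the label, so the cells are called by their label without further naming. Among 8 leukocyte markers Cd3e, Adgre1 and Ncr1 had no count, and the sum of the 8 was 0.104 to 0.351 CPM in PBS and 0.593 to 1.41 CPM in MRC+L. Fibroblast markers summed to 43.0 to 78.3 CPM in PBS and 73.9 to 83.9 CPM in MRC+L, nearly all from Pdgfra and Pdgfrb, with Dcn at 0. Endothelial markers summed to 3.34 to 7.39 and 4.09 to 5.30 CPM, with Emcn at 0. In bulk RNA a smaller number of cells of one kind and less RNA per cell cannot be told apart.

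MRC+L cells held more RNA of many chaperone genes and NRF2 targets and less of interferon-stimulated and cell division genes than PBS cells. Hspa5, a chaperone of the secretory pathway, was 5.11-fold higher, and 28 of 30 tested genes of its pathway were called higher. Slc7a11, the cystine importer, was 25.3-fold higher, with 19 of 32 NRF2 targets called higher. Ifi44 was 10.2-fold lower, and 55 of 60 interferon-stimulated genes and 24 of 34 S phase genes were called lower. Of 55416 genes in the files, 13131 passed the filter on low counts (a count of about 10 in at least 3 libraries), and 4781 (36.4%) were called at an adjusted p under 0.05 by the quasi-likelihood test of edgeR. MRC+L was higher for 2183 of them (16.6% of tested genes) and lower for 2598 (19.8%). A change of at least 2-fold was called for 981 genes upward and 1297 downward, and one of at least 4-fold for 283 and 309. The libraries of the groups did not overlap for 7459 genes (56.8%), among them 4775 of the called ones. Without PBS replicate 2, 7464 of 13494 genes (55.3%) were called, 3654 higher (27.1%) and 3810 lower (28.2%), and they included 4738 of the 4781 with the same sign. The count of calls also moved with other libraries: it was 2927, 2602 and 2644 without MRC+L replicate 1, 2 and 3 and 3017 without PBS replicate 1. The share of called genes with a lower level was 54.3%, and 51.0% without PBS replicate 2. The median log2 fold change over all tested genes was -0.04.

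**Figure D2:**
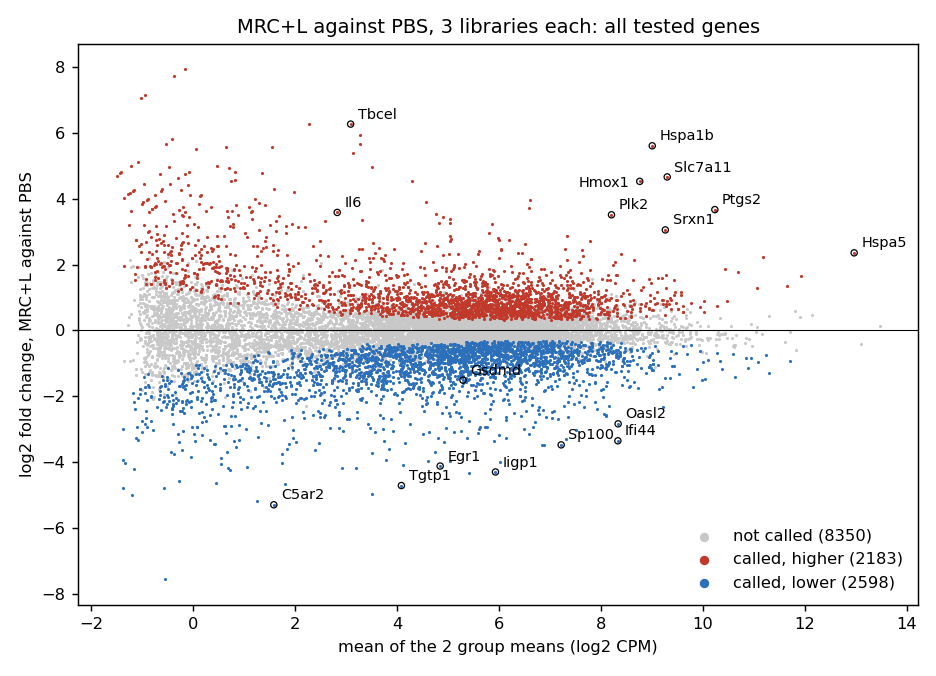
Log2 fold change of MRC+L against PBS (vertical axis) against the mean level of the group means (log2 CPM, horizontal axis) for every tested gene, 3 libraries per group. Red points were called higher (2183), blue points lower (2598) and grey points were not called. Hspa5 is both abundant and risen, and interferon-stimulated genes such as Ifi44 and Iigp1 lie low on the plot.

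Heat shock genes and NRF2 targets were among the 12 largest rises. Hspa1b, an inducible HSP70 chaperone (chr17:35175412-35178214 in GRCm39), stood at 6.66, 29.3 and 26.3 CPM in PBS and 815, 929 and 1284 CPM in MRC+L (log2 fold change 5.61 ± 0.59, adjusted p = 0.000794). Reads that Hspa1b shares with its near-identical neighbour Hspa1a were not counted, so the split between the 2 genes is uncertain. Hspa1a stood at 0.052, 0.41 and 0.684 CPM in PBS and 14.98, 18.2 and 23.6 CPM in MRC+L (log2 fold change 5.66, adjusted p = 0.000466). Slc7a11, the cystine importer that feeds glutathione synthesis (chr3:49846975-50398063), stood at 38.95, 35.4 and 69.7 CPM in PBS and 1228, 1288 and 1129 CPM in MRC+L (log2 fold change 4.66 ± 0.31, adjusted p = 0.000174), 25.3-fold higher. Hmox1, the enzyme that breaks down heme (chr8:75820249-75827217), stood at 23.4, 54.6 and 30.4 CPM in PBS and 827, 824 and 848 CPM in MRC+L (log2 fold change 4.53 ± 0.34, adjusted p = 0.000236). All 3 MRC+L libraries lay far above all PBS libraries for each of these genes, and the MRC+L values of Hmox1 were nearly equal to each other.

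Several other large rises began near the detection limit. Tbcel, a tubulin-binding protein, stood at 0, 0.586 and 0.0621 CPM in PBS and 16.3, 15.6 and 18.4 CPM in MRC+L (log2 fold change 6.27, adjusted p = 0.000737). Sstr5, a somatostatin receptor, stood at 0, 0.82 and 0.124 CPM in PBS and 17.03, 18.6 and 21.7 CPM in MRC+L (log2 fold change 5.92, adjusted p = 0.00103). Dnmt3l, a partner of DNA methyltransferases best known in germ cells, stood at 0.156, 0.117 and 0.0621 CPM in PBS and 5.41, 6.101 and 5.63 CPM in MRC+L (log2 fold change 5.56, adjusted p = 0.00012). Each was seen at 5.41 to 21.7 CPM in every MRC+L library. Fitted fold changes from so low a base depend on the prior count of 0.125 and are imprecise. Gsta1, a glutathione transferase with near-identical relatives, stood at 0.208, 0.996 and 0 CPM in PBS and 15.4, 17.9 and 18.4 CPM in MRC+L. Sh2d6 stood at 0.416, 1.41 and 0.311 CPM in PBS and 20.1, 21.6 and 24.9 CPM in MRC+L, and Car6, a secreted carbonic anhydrase, at 0.936, 2.401 and 1.49 CPM in PBS and 38.3, 37.5 and 36.9 CPM in MRC+L. The log2 fold change was 5.40 (adjusted p = 0.00132) for Gsta1, 4.95 (adjusted p = 0.000466) for Sh2d6 and 4.55 (adjusted p = 0.000174) for Car6. Grhl2, a factor of epithelial cells, and Nrcam, a cell adhesion molecule, completed the 12 with log2 fold changes of 4.28 and 4.20.

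The 12 largest falls were mostly interferon-stimulated genes. Ifi44l stood at 21.01, 29.1 and 16.2 CPM in PBS and 0.919, 0.469 and 0.652 CPM in MRC+L (log2 fold change -4.99 ± 0.34, adjusted p = 0.00018). Tgtp1, an interferon-induced GTPase (chr11:48876154-48884999), stood at 38.4, 30.7 and 28.9 CPM in PBS and 1.19, 1.48 and 1.07 CPM in MRC+L (log2 fold change -4.72 ± 0.21, adjusted p = 7.2e-05). Iigp1, a GTPase of the same family, stood at 128, 100.2 and 121 CPM in PBS and 6.54, 5.498 and 5.57 CPM in MRC+L (log2 fold change -4.30 ± 0.16, adjusted p = 6e-05). For these 3 genes the highest MRC+L library was more than 10 times below the lowest PBS library. Ifit3, Ifit3b, Ifi47, Phf11b and Slfn2 had log2 fold changes of -4.33, -3.97, -3.94, -4.17 and -3.99. The others were Csprs (-4.19), the complement receptor C5ar2 (-5.30), the death ligand Tnfsf10 (-4.03) and Egr1 (-4.12), a factor induced by growth signals. C5ar2 and Tnfsf10 were low throughout, at 3.28 to 7.71 CPM and 3.63 to 8.89 CPM in PBS.

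The unfolded protein response was the list with the largest share of members higher, except without PBS replicate 1. There heat shock genes (14 of 26), NRF2 targets (17 of 32) and ATF4 targets (17 of 32) had larger shares than its 15 of 30. Among 30 tested members (31 listed), 28 were called higher and 0 lower, with log2 fold changes of 0.44 to 2.35 and a median of 1.04 over tested members. Hspa5, also called BiP, the main chaperone of the endoplasmic reticulum lumen (chr2:34661982-34667559 in GRCm39), stood at 2346, 3307 and 2234 CPM in PBS and 12918, 13432 and 13988 CPM in MRC+L (log2 fold change 2.35 ± 0.20, adjusted p = 0.000366), 5.11-fold higher. It was the gene with the most counts in every MRC+L library, while mt-Co1 or Eef1a1 was first in each PBS library. Dnajb9, a co-chaperone of BiP, stood at 21.6, 24.8 and 22.1 CPM in PBS and 101, 106 and 107 CPM in MRC+L (log2 fold change 2.20 ± 0.11, adjusted p = 7.32e-05). Hyou1, a large chaperone that exchanges the nucleotide of BiP, stood at 157, 131 and 156 CPM in PBS and 651, 654 and 661 CPM in MRC+L (log2 fold change 2.15 ± 0.13, adjusted p = 0.000124). Herpud1, a part of the degradation complex of the endoplasmic reticulum, stood at 106, 119.8 and 103 CPM in PBS and 315, 304 and 332 CPM in MRC+L (log2 fold change 1.53, adjusted p = 0.000244). The groups of none of these 4 genes overlapped, and PBS replicate 2 was the highest PBS library for Hspa5 and the lowest for Hyou1.

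The transducers of the response rose as well as its chaperones. Xbp1, whose RNA is spliced by IRE1 into the active factor, stood at 65.8, 89.8 and 62.9 CPM in PBS and 170.3, 163 and 187 CPM in MRC+L (log2 fold change 1.25 ± 0.17, adjusted p = 0.0018). The counts are summed over the gene, so spliced and unspliced Xbp1 were not separated. Ern1, which encodes IRE1, had a log2 fold change of 1.03 (adjusted p = 0.0438), Eif2ak3, which encodes PERK, of 1.61 (adjusted p = 0.000457), and Atf6 of 0.90 (adjusted p = 0.0275). Ero1lb, an oxidase that makes disulfide bonds, stood at 17.9, 19.6 and 22.7 CPM in PBS and 62.01, 67.9 and 68.2 CPM in MRC+L (log2 fold change 1.72, adjusted p = 0.000236). Calr, calreticulin, stood at 600.4, 790.4 and 514 CPM in PBS and 965, 927 and 922 CPM in MRC+L (log2 fold change 0.56 ± 0.18, adjusted p = 0.0467). Calr was not called without MRC+L replicate 1, 2 or 3 or PBS replicate 1 or 3 (adjusted p = 0.0734 to 0.155), and without PBS replicate 2 it was called with a log2 fold change of 0.75. Unfolded protein response genes called higher numbered 15 without PBS replicate 1 and 17 without MRC+L replicate 1, 2 or 3. The median of the list stayed between 0.96 and 1.13 with any 1 library left out.

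Genes of the integrated stress response moved in the same direction as the chaperones. Of the ATF4 targets, 21 of 32 tested members (of 36 listed) were called higher and 1 lower (median 0.78). Atf3, a repressor induced by stress, stood at 35.7, 49.5 and 32.6 CPM in PBS and 253, 282 and 323 CPM in MRC+L (log2 fold change 2.86 ± 0.20, adjusted p = 0.000191). Ppp1r15a, which brings the phosphatase that ends the response, stood at 41.5, 61.2 and 41.6 CPM in PBS and 259.8, 256 and 288 CPM in MRC+L (log2 fold change 2.48 ± 0.19, adjusted p = 0.00024). Ddit3, or CHOP, the factor tied to death after lasting stress, stood at 35.2, 68.5 and 28.9 CPM in PBS and 145, 151 and 167 CPM in MRC+L (log2 fold change 1.80 ± 0.32, adjusted p = 0.0053). PBS replicate 2 was the highest of the PBS libraries for all 3 genes and still lay below every MRC+L library. Slc3a2, the heavy chain that carries Slc7a11 to the membrane, stood at 282, 361 and 242 CPM in PBS and 899.6, 973 and 948 CPM in MRC+L (log2 fold change 1.67, adjusted p = 0.000776), and Vegfa, a growth factor of vessels, at 81.4, 83.6 and 81.7 CPM in PBS and 199.99, 184 and 183 CPM in MRC+L (log2 fold change 1.20, adjusted p = 0.000402). Asns had a log2 fold change of 0.84 (adjusted p = 0.00442) and Mthfd2 of 0.62 (adjusted p = 0.0128). The serine genes Phgdh, Psat1, Psph and Shmt2 were tested and not called. Chac1, an enzyme that degrades glutathione and is usually counted among ATF4 targets, was the 1 member called lower (142, 139 and 129 CPM in PBS and 103, 108 and 103 CPM in MRC+L, log2 fold change -0.38, adjusted p = 0.0283). Chac1 lost its call without MRC+L replicate 1, 2 or 3 or PBS replicate 1 (adjusted p = 0.102 to 0.114) and with the gene length trend removed (adjusted p = 0.495). Atf4 itself stood at 438, 594 and 384 CPM in PBS and 787, 839 and 853 CPM in MRC+L (log2 fold change 0.81 ± 0.18, adjusted p = 0.0144) and was not called without MRC+L replicate 1, 2 or 3 or PBS replicate 1 (adjusted p = 0.0545 to 0.0689). ATF4 targets called lower numbered 0 without MRC+L replicate 1, 2 or 3 or PBS replicate 1 and 2 without PBS replicate 2.

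The 250 bases before the start of Hspa5 and Slc7a11 are shown because these genes lead the endoplasmic reticulum and ATF4 lists and carry the motifs named for those pathways; they were chosen after their values were seen. In Hspa5 the capitals mark the endoplasmic reticulum stress element, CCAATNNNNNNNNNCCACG, which begins 65 bases before the start. In Slc7a11 they mark 2 copies of an 8-base ATF4 and C/EBP composite core, TGATGNAA, one on each strand, the first beginning 66 bases before the start. Sequences are from RefSeq on GRCm38.p6, at chr2:34771840-34772089 (plus strand) and chr3:50443614-50443863 (minus strand), and are written 5′ to 3′ along the gene.
Hspa5: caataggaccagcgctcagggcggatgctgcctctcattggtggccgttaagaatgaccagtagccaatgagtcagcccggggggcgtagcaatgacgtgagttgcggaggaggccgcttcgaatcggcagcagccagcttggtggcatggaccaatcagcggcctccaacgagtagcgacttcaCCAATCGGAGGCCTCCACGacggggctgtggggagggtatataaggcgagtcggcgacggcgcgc
Slc7a11: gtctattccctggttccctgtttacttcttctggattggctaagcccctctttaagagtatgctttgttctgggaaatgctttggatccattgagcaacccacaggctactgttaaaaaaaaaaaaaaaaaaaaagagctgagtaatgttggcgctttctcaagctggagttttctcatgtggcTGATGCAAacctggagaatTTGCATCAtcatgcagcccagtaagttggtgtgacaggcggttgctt

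Both strands of each entry of 300 bases (250 before and 50 after the start) were searched. The stress element was in 9 of the 26 unfolded protein response genes with an entry (34.6%) and in 37 of all 27018 genes of the promoter table (0.137%). The composite core was in 8 of 27 ATF4 targets with an entry (29.6%) and in 4.51% of all genes. In the 250 bases before the start alone the composite core was in 22.2% and 3.90%. Matches of different motifs were allowed to share bases. A match describes the letters and is not a measured binding site.

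Genes under NRF2 control were mostly higher. Among 32 tested members (35 listed), 19 were called higher and 2 lower, with a median log2 fold change of 1.25, against -0.04 over all tested genes. Srxn1, sulfiredoxin, which repairs overoxidised peroxiredoxins, stood at 116, 159 and 122 CPM in PBS and 996, 1114 and 1185 CPM in MRC+L (log2 fold change 3.05 ± 0.18, adjusted p = 0.00012), 8.29-fold higher. Nqo1, a quinone reductase, stood at 22.8, 32.6 and 27.04 CPM in PBS and 133, 143 and 143 CPM in MRC+L (log2 fold change 2.34 ± 0.16, adjusted p = 0.000174). The 2 subunits of the enzyme that limits glutathione synthesis are Gclm and Gclc. Gclm, the modifier, stood at 63.5, 79.9 and 66.6 CPM in PBS and 348, 316 and 332 CPM in MRC+L (log2 fold change 2.25 ± 0.14, adjusted p = 0.00012). Gclc, the catalytic subunit, stood at 71.5, 71.6 and 78.4 CPM in PBS and 256, 256 and 275 CPM in MRC+L (log2 fold change 1.83 ± 0.11, adjusted p = 0.000124). No PBS library overlapped with MRC+L for any of these genes. Txnrd1, thioredoxin reductase, had a log2 fold change of 1.60 (adjusted p = 0.000382). The pentose phosphate enzymes G6pdx and Pgd, which supply NADPH, were called higher at 0.53 and 1.60 on the log2 scale. Ugdh and Akr1c13 were called lower, at -1.07 and -0.84, Akr1c13 not without MRC+L replicate 1, 2 or 3 or PBS replicate 1 (adjusted p = 0.0585 to 0.115).

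RNA of the regulators themselves was not called. Nfe2l2, which encodes NRF2, stood at 218, 239.7 and 219 CPM in PBS and 229.7, 225 and 229 CPM in MRC+L (log2 fold change 0.02 ± 0.11, adjusted p = 0.917), and Keap1 at 88.4, 84.9 and 85.8 CPM in PBS and 88.5, 82.1 and 86.1 CPM in MRC+L (log2 fold change -0.01 ± 0.10, adjusted p = 0.926). The groups overlapped for both genes. NRF2 is controlled mainly through its protein, which was not measured. NRF2 targets called lower numbered 1 without MRC+L replicate 1, 2 or 3 or PBS replicate 1 and 5 without PBS replicate 3.

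The promoters of Gclm and Txnrd1 are shown as the called NRF2 targets with the smallest adjusted p whose 250 bases hold the antioxidant response element core, TGACNNNGC. Capitals mark the core, on the strand opposite to the gene in both, beginning 134 and 92 bases before the start. They lie at chr3:122245307-122245556 (plus strand) and chr10:82858956-82859205 (plus strand) of GRCm38.p6.
Gclm: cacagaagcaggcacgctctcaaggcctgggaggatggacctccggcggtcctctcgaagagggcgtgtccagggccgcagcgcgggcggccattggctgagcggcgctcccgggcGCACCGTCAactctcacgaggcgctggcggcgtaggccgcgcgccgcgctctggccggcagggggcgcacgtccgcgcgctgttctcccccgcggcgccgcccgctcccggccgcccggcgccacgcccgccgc
Txnrd1: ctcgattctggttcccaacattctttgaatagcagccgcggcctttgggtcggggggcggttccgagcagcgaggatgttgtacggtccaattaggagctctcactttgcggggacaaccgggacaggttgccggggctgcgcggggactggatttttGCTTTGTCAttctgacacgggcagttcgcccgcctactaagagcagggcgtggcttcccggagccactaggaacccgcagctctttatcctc

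The core was in 10 of 26 NRF2 targets with an entry (38.5%) and in 14.0% of all genes of the table. In the 250 bases before the start alone it was in 26.9% and 11.5%. Ugdh, which was called lower, held 2 copies within those bases. Nqo1, Slc7a11 and Gsta1, which were called higher, had an entry without the core.

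Iron and ferroptosis genes were mixed. Among 22 tested members (26 listed), 6 were called higher and 4 lower, against 16.6% and 19.8% of all tested genes. The share called lower was near that over all genes. Ptgs2, cyclooxygenase 2, which is often read as a marker of ferroptosis and is also an inflammatory gene, stood at 155, 163 and 210.3 CPM in PBS and 2144, 2422 and 2148 CPM in MRC+L (log2 fold change 3.67 ± 0.18, adjusted p = 7.27e-05), 12.7-fold higher. Steap3, an iron reductase, and Slc11a2, an iron importer, were called higher with log2 fold changes of 1.05 and 0.82. Gpx4, which reduces lipid peroxides in membranes, stood at 333, 532 and 270.04 CPM in PBS and 193, 178 and 199 CPM in MRC+L (log2 fold change -0.99 ± 0.25, adjusted p = 0.0206). Gpx4 was not called without MRC+L replicate 1, 2 or 3 (adjusted p = 0.0722 to 0.0875). Fth1, the ferritin heavy chain, stood at 2375, 4575 and 1683 CPM in PBS and 4107, 4411 and 4515 CPM in MRC+L and was not called with 6 libraries (log2 fold change 0.59, adjusted p = 0.218). Its PBS replicate 2 value was above every other library, and without that library Fth1 was called higher (log2 fold change 1.10, adjusted p = 8.8e-06). Ferroptosis and iron genes called higher numbered 10 without PBS replicate 2. Ferroptosis and iron genes called lower numbered 1 without MRC+L replicate 1 or 2 and 2 without MRC+L replicate 3.

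Metal-response genes were mostly higher. Among 15 tested members (16 listed), 8 were called higher and 2 lower (median 0.79). Slc30a1, the zinc exporter of the plasma membrane and a target of the metal sensor MTF1, stood at 8.43, 9.195 and 8.02 CPM in PBS and 54.4, 61.4 and 59.3 CPM in MRC+L (log2 fold change 2.77 ± 0.13, adjusted p = 7.2e-05). The metallothioneins Mt1 and Mt2, which bind zinc and copper, stood at 62.3, 214 and 60.8 CPM in PBS and 500.3, 578 and 614 CPM in MRC+L (log2 fold change 2.33, adjusted p = 0.0123) and at 1.04, 5.15 and 1.68 CPM in PBS and 11.4, 12.6 and 13.7 CPM in MRC+L (log2 fold change 2.27, adjusted p = 0.0149). Mtf1 itself had a log2 fold change of 0.79 (adjusted p = 0.00308). Slc39a6 and Slc39a7, zinc importers into the cytosol, rose by 1.62 and 1.68 on the log2 scale. Metal ion response genes called lower numbered 1 without MRC+L replicate 3.

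Genes of the antioxidant enzyme list did not move as 1 block. Among 20 tested members (24 listed), 4 were called higher and 7 lower, against 16.6% and 19.8% of all tested genes. Cat, catalase, stood at 63.2, 60.03 and 64.3 CPM in PBS and 165, 172 and 169 CPM in MRC+L (log2 fold change 1.43 ± 0.11, adjusted p = 0.000197). Gpx1, the main cytosolic glutathione peroxidase, stood at 446, 757 and 349 CPM in PBS and 169, 157 and 170.03 CPM in MRC+L (log2 fold change -1.65 ± 0.28, adjusted p = 0.00485). Gpx8 and Glrx, a peroxidase of the endoplasmic reticulum and a glutaredoxin, fell by 1.56 and 1.44 on the log2 scale. Gpx1 has a short transcript and its PBS replicate 2 value was the highest; without that library its log2 fold change was -1.27 (adjusted p = 2.07e-07). The median of the list turned from -0.22 to 0.07 without PBS replicate 2. Antioxidant enzymes called higher numbered 2 without MRC+L replicate 1, 2 or 3 and 7 without PBS replicate 2. Antioxidant enzymes called lower numbered 3 without MRC+L replicate 1 or 2 and 4 without MRC+L replicate 3.

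Cytosolic chaperones rose alongside those of the endoplasmic reticulum. Of the heat shock list, 15 of 26 tested members were called higher and 1 lower (median 0.62). Hspa8, the constitutive HSP70, stood at 1616, 2531 and 1455 CPM in PBS and 5260.1, 5706 and 6689 CPM in MRC+L (log2 fold change 1.66 ± 0.25, adjusted p = 0.0028). Hsp90aa1, the inducible HSP90, stood at 1871, 1768 and 1839 CPM in PBS and 4139.6, 4688 and 5112 CPM in MRC+L (log2 fold change 1.35 ± 0.15, adjusted p = 0.000851). Hsph1, a nucleotide exchange factor for HSP70, stood at 158, 128 and 157 CPM in PBS and 407, 468 and 561 CPM in MRC+L (log2 fold change 1.70 ± 0.17, adjusted p = 0.000631). MRC+L replicate 3 was the highest library for each of these 3 genes and for Hspa1b. Hsp90ab1, the constitutive HSP90, stood at 3799.9, 4277 and 3419 CPM in PBS and 5022, 5183 and 5579.8 CPM in MRC+L and was just short of a call (log2 fold change 0.46, adjusted p = 0.0526); without PBS replicate 2 it was called higher (log2 fold change 0.54, adjusted p = 0.000272). Cryab, a small heat shock protein, was called lower (log2 fold change -1.28, adjusted p = 0.0121), and not without MRC+L replicate 2 or 3 (adjusted p = 0.0553 in both). Heat shock genes called lower numbered 0 without MRC+L replicate 2 or 3. The heat shock element GAANNTTCNNGAA was in 4 of 21 members with an entry (19.0%) and in 0.663% of all genes. In the 250 bases before the start alone it was in 2 of the 21 (9.52%) and in 0.515%.

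**Figure D3:**
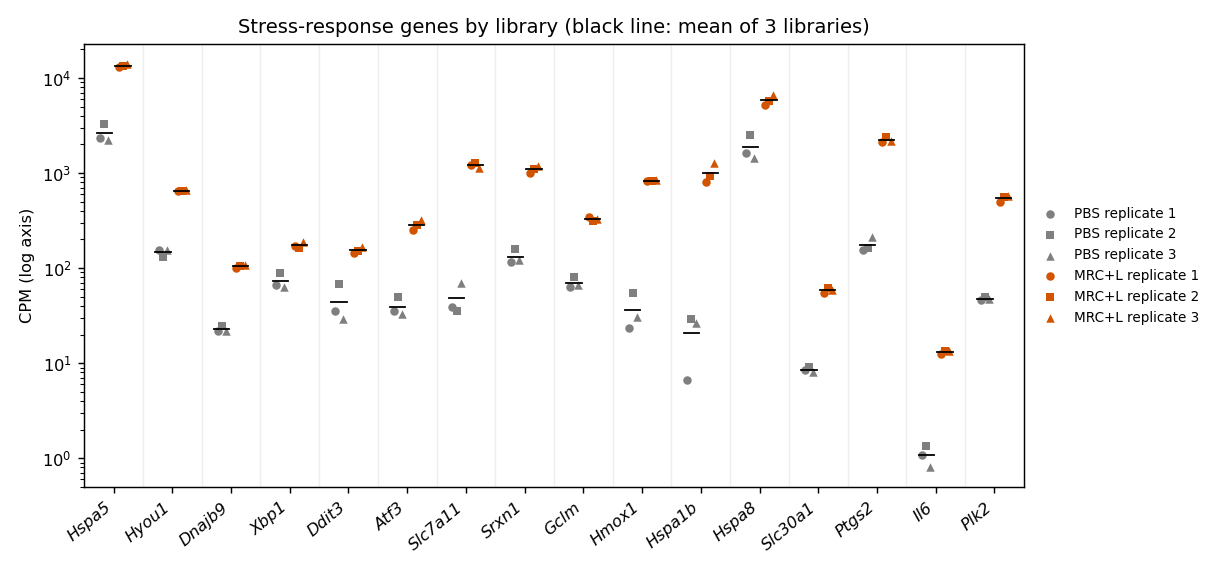
CPM (log axis) of 16 stress-response genes in each of 3 PBS libraries (grey) and 3 MRC+L libraries (orange), with the mean of each group as a black line and the replicate as the marker shape. Every MRC+L point lies above every PBS point of the same gene, among them Hspa5 with 2234 to 3307 CPM and Il6 with 0.808 to 1.35 CPM in PBS.

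Interferon-stimulated genes formed the list with the lowest median. Among 60 tested members (63 listed), 0 were called higher and 55 lower, with log2 fold changes of -0.84 to -4.99 and a median of -2.60 (all tested genes -0.04). Ifi44 stood at 604, 578 and 582 CPM in PBS and 61.9, 51.8 and 58.5 CPM in MRC+L (log2 fold change -3.36 ± 0.13, adjusted p = 6e-05), 10.2-fold lower. Sp100, a nuclear body protein, stood at 272, 279 and 271 CPM in PBS and 25.5, 25.9 and 22.2 CPM in MRC+L (log2 fold change -3.48 ± 0.13, adjusted p = 6e-05). Oasl2, of the family that senses double-stranded RNA, stood at 596, 582 and 528 CPM in PBS and 81.6, 76.8 and 79.6 CPM in MRC+L (log2 fold change -2.84 ± 0.13, adjusted p = 7.2e-05). The PBS libraries lay within a narrow band for all 3 genes, PBS replicate 2 included, and no library overlapped. In the fit without PBS replicate 2, 3 were called higher and 57 lower. Copies in the Ifit, Oas, Gbp and Tgtp families are near identical, so counts of single members of these families are uncertain. Interferon-stimulated genes called higher numbered 1 without PBS replicate 3 and 3 without PBS replicate 2.

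Regulators of the interferon response fell too. Irf7, the factor that amplifies type I interferon, stood at 372, 525 and 326 CPM in PBS and 83.6, 67.99 and 82.4 CPM in MRC+L (log2 fold change -2.39 ± 0.21, adjusted p = 0.000427). Usp18, an interferon-induced brake on the receptor, stood at 213, 244 and 175 CPM in PBS and 19.03, 18.1 and 19.4 CPM in MRC+L (log2 fold change -3.48 ± 0.16, adjusted p = 7.2e-05). PBS replicate 2 was the highest library for both genes, and the lowest PBS library was still more than 3 times the highest MRC+L library. Of interferon, receptor and kinase genes, 0 of 12 tested members (of 20 listed) were called higher and 6 lower; Tyk2 (log2 fold change -1.29, adjusted p = 0.00105), a receptor kinase, was among the lower ones. Ifnb1, interferon beta, was under the filter, with 7, 15 and 4 counts in PBS and 3, 2 and 0 counts in MRC+L. Cxcl10, a chemokine that interferon and NF-kB both induce, stood at 73.2, 87.3 and 60.5 CPM in PBS and 75.3, 79.3 and 78.3 CPM in MRC+L and was not called (log2 fold change 0.08 ± 0.15, adjusted p = 0.713). Interferon and receptor genes called higher numbered 1 without PBS replicate 2.

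Sensors of nucleic acids showed the same direction as the genes they induce. Among 27 tested members (30 listed), 2 were called higher and 16 lower. Ddx58, which encodes the RNA sensor RIG-I, stood at 334, 259 and 344 CPM in PBS and 75.3, 66.4 and 64.6 CPM in MRC+L (log2 fold change -2.18 ± 0.16, adjusted p = 0.00019). Ikbke, a kinase of the interferon factors, stood at 117, 129 and 117 CPM in PBS and 26.3, 23.9 and 26.2 CPM in MRC+L (log2 fold change -2.25 ± 0.11, adjusted p = 7.27e-05). Tmem173, which encodes STING, the adaptor of cytosolic DNA sensing, stood at 73.1, 71.7 and 67.6 CPM in PBS and 30.8, 26.2 and 27.02 CPM in MRC+L (log2 fold change -1.34 ± 0.12, adjusted p = 0.000373). Irf5, another interferon factor, fell by 1.86 on the log2 scale. Many of these sensors are themselves induced by interferon, and several are in both lists. The adaptors Ticam1 (log2 fold change 0.58, adjusted p = 0.0152) and Traf6 (log2 fold change 0.78, adjusted p = 0.0252) were called higher. Sensing genes called higher numbered 0 without MRC+L replicate 1 or 2 or PBS replicate 1, 1 without MRC+L replicate 3 and 4 without PBS replicate 3.

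Antigen presentation by MHC class I was lower in its loading machinery, and its classical chains were not called. Among 23 tested members (24 listed), 0 were called higher and 13 lower. Tap1, a subunit of the pump that carries peptides into the endoplasmic reticulum, stood at 171, 184 and 156 CPM in PBS and 77.8, 69.6 and 71.5 CPM in MRC+L (log2 fold change -1.22 ± 0.12, adjusted p = 0.00057). Tapbp, which bridges that pump to class I, stood at 322, 364 and 286 CPM in PBS and 103, 80.8 and 91.4 CPM in MRC+L (log2 fold change -1.82 ± 0.15, adjusted p = 0.000327). The nonclassical genes H2-T24 and H2-T22 had log2 fold changes of -3.08 and -2.02. H2-K1 stood at 834, 1325 and 694 CPM in PBS and 663, 658 and 729.6 CPM in MRC+L (log2 fold change -0.48, adjusted p = 0.166) and H2-D1 at 1606, 2435 and 1326 CPM in PBS and 1275, 1237 and 1351 CPM in MRC+L (log2 fold change -0.47, adjusted p = 0.151). Neither classical gene was called, and the groups overlapped for both. Both depended on single PBS libraries: without PBS replicate 3 they were called lower, H2-K1 at -0.67 (adjusted p = 0.0401) and H2-D1 at -0.66 (adjusted p = 0.035) on the log2 scale, and without PBS replicate 2 the values were -0.16 and -0.19, not called. MHC class I genes called higher numbered 1 without PBS replicate 3 and 2 without PBS replicate 2.

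The promoters of Gbp3 and Tgtp1 are shown because both genes fell strongly and hold the core of the interferon-stimulated response element, GAAANNGAA, within 250 bases. Gbp3 had a log2 fold change of -2.94 (adjusted p = 7.2e-05). Capitals mark the cores: 2 overlapping ones on the strand opposite to Gbp3, the first beginning 44 bases before the start, and 1 on the strand of Tgtp1, beginning 77 bases before it. They lie at chr3:142559794-142560043 (plus strand) and chr11:48992247-48992496 (minus strand) of GRCm38.p6.
Gbp3: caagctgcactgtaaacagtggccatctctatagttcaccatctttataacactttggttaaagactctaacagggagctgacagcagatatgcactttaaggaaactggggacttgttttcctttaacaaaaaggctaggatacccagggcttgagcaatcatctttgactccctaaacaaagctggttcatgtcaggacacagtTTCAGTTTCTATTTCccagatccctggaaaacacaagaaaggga
Tgtp1: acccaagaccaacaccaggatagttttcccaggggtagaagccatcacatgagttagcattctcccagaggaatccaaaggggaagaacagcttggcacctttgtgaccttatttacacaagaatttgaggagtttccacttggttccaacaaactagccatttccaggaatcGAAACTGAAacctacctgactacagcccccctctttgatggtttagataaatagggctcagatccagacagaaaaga

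The table held 47 of the 60 tested interferon-stimulated genes, or 78.3%, which is too few for a share over the list, so that check is void. The core was in 9.76% of all genes of the table.

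By edgeR with 6 libraries, genes of the pyroptosis machinery were lower or not called. Limma voom with quality weights called 5 of them higher and 12 lower. Among 21 tested members (32 listed), 0 were called higher and 11 lower (median -0.66). Gsdmd, the gasdermin cut by inflammatory caspases, stood at 50.97, 74.9 and 48.5 CPM in PBS and 21.6, 19.7 and 19.7 CPM in MRC+L (log2 fold change -1.51 ± 0.19, adjusted p = 0.00149), 2.86-fold lower. Gsdme, another gasdermin, stood at 27.8, 38.6 and 26.3 CPM in PBS and 28.2, 32.8 and 31.2 CPM in MRC+L (log2 fold change -0.01 ± 0.18, adjusted p = 0.973), with overlapping groups. Gsdmc was under the filter with 0, 0 and 4 counts in PBS and 0, 0 and 0 counts in MRC+L. Of the enzymes, Casp8, the caspase of death receptors, stood at 124, 132 and 109 CPM in PBS and 65.3, 60.6 and 65.3 CPM in MRC+L (log2 fold change -0.93 ± 0.12, adjusted p = 0.00141). The groups did not overlap for Gsdmd or Casp8.

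The inflammatory caspases were not called. Casp1 stood at 7.18, 13.9 and 7.33 CPM in PBS and 10.9, 11.1 and 8.18 CPM in MRC+L (log2 fold change 0.09 ± 0.30, adjusted p = 0.835) and Casp4, or caspase 11, at 10.7, 17.04 and 9.82 CPM in PBS and 12.5, 12.2 and 15.4 CPM in MRC+L (log2 fold change 0.10 ± 0.24, adjusted p = 0.77). The groups overlapped for both through PBS replicate 2, and without it both were called higher, Casp1 with a log2 fold change 0.47, adjusted p = 0.0384, and Casp4 with a log2 fold change 0.38, adjusted p = 0.0481. Both genes were low, at under 20 CPM in all 6 libraries. Ninj1, which ruptures the membrane after pore formation, stood at 43.6, 57.5 and 41.8 CPM in PBS and 30.8, 29.3 and 33.00 CPM in MRC+L (log2 fold change -0.62 ± 0.16, adjusted p = 0.0201). Ninj1 was not called without MRC+L replicate 1, 2 or 3 (adjusted p = 0.0652 to 0.093). Il18, a cytokine that caspase 1 matures, stood at 2.76, 4.803 and 3.73 CPM in PBS and 1.35, 1.27 and 1.18 CPM in MRC+L (log2 fold change -1.56 ± 0.29, adjusted p = 0.00621). The sensor Nlrp3 was under the filter with 6, 2 and 6 counts in PBS and 4, 6 and 5 counts in MRC+L, as was Il1b with 0, 0 and 0 counts in PBS and 2, 5 and 6 counts in MRC+L. Zbp1, a sensor of Z-form nucleic acids that is also induced by interferon, stood at 92.99, 119.8 and 77.3 CPM in PBS and 14.3, 10.7 and 12.6 CPM in MRC+L (log2 fold change -2.94 ± 0.21, adjusted p = 0.00019). Pyroptosis genes called higher numbered 1 without PBS replicate 3 and 2 without PBS replicate 2. Pyroptosis genes called lower numbered 7 without MRC+L replicate 1 or 2 or PBS replicate 1.

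**Figure D4:**
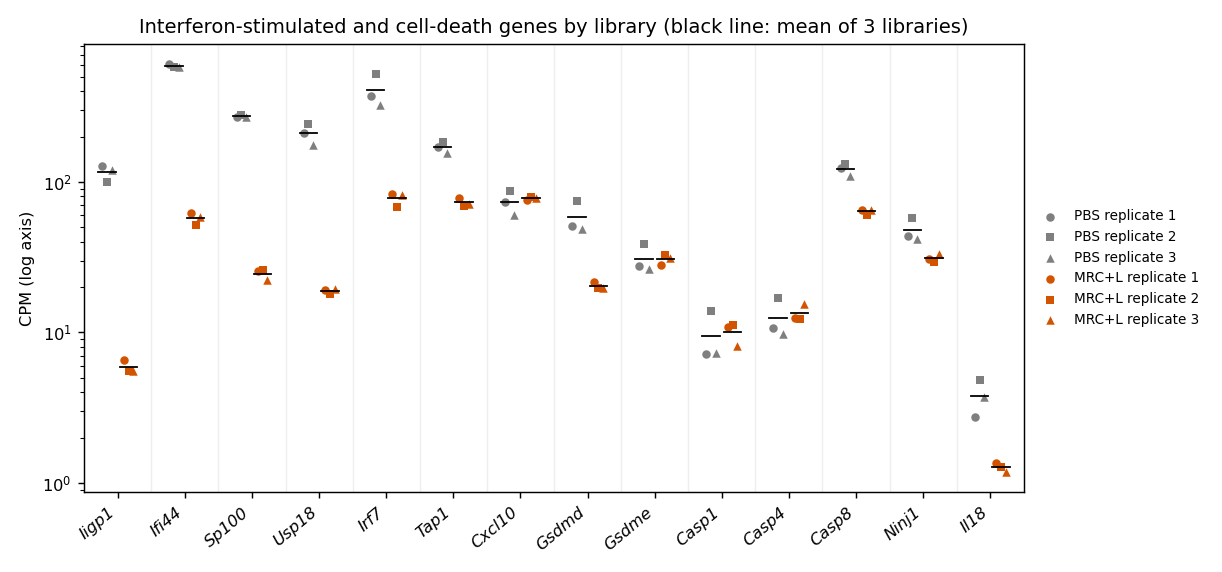
CPM (log axis) of 14 interferon-stimulated, antigen presentation and cell-death genes in each PBS library (grey) and MRC+L library (orange), with group means as black lines and the replicate as the marker shape. The groups are apart for Iigp1 to Tap1, Gsdmd, Casp8, Ninj1 and Il18, and they overlap for Cxcl10, Gsdme, Casp1 and Casp4.

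Regulators of apoptosis fell on both sides of the balance. Among 31 tested members (35 listed), 1 was called higher and 18 lower (median -0.52). Bcl2l1, which encodes the survival protein BCL-XL, stood at 106, 113 and 103.9 CPM in PBS and 41.04, 38.5 and 41.00 CPM in MRC+L (log2 fold change -1.42 ± 0.11, adjusted p = 0.0002). Casp9, the caspase of the apoptosome, stood at 35.4, 26.8 and 33.9 CPM in PBS and 15.7, 15.6 and 18.1 CPM in MRC+L (log2 fold change -0.96 ± 0.15, adjusted p = 0.0035). Casp6, an executioner caspase, stood at 27.2, 30.5 and 23.1 CPM in PBS and 11.7, 8.98 and 9.95 CPM in MRC+L (log2 fold change -1.40, adjusted p = 0.00118). Survival genes (Bcl2, Bcl2l1, Bcl2l2, Mcl1, Birc3, Birc5) and death genes (Bad, Bak1, Bid, Bmf, Bok, Casp6, Casp8, Casp9) were both among those called lower. Tnfrsf10b, the death receptor for TRAIL and a target of CHOP, was called higher (64.6, 45.5 and 72.4 CPM in PBS and 106, 104.5 and 101 CPM in MRC+L, log2 fold change 0.77, adjusted p = 0.015), and not without MRC+L replicate 1, 2 or 3 (adjusted p = 0.0555 to 0.0616). Apoptosis regulators called higher numbered 0 without MRC+L replicate 1, 2 or 3, 4 without PBS replicate 3 and 5 without PBS replicate 2. Apoptosis regulators called lower numbered 10 without MRC+L replicate 3 and 11 without MRC+L replicate 2.

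Necroptosis was covered by 9 tested genes, of which 5 were called lower and 1 higher. Mlkl, the protein that opens the membrane in necroptosis, stood at 139.6, 148 and 135 CPM in PBS and 93.3, 90.5 and 96.7 CPM in MRC+L (log2 fold change -0.59 ± 0.11, adjusted p = 0.0055). Pgam5, a mitochondrial phosphatase, stood at 55.9, 63.4 and 53.1 CPM in PBS and 81.2, 89.9 and 93.4 CPM in MRC+L (log2 fold change 0.62, adjusted p = 0.00775) and was not called without MRC+L replicate 3 (adjusted p = 0.0519). Ripk3, the kinase that activates MLKL, was under the filter with 0, 2 and 0 counts in PBS and 0, 0 and 0 counts in MRC+L. Necroptosis genes called higher numbered 0 without MRC+L replicate 3. Necroptosis genes called lower numbered 3 without MRC+L replicate 1, 2 or 3 or PBS replicate 1.

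Genes of proteins released or shown by dying cells were called in both directions. Among 22 tested members (25 listed), 6 were called higher and 11 lower, against 16.6% and 19.8% of all tested genes. P2rx7, a receptor for extracellular ATP, stood at 16.4, 14.2 and 21.8 CPM in PBS and 71.3, 69.4 and 77.8 CPM in MRC+L (log2 fold change 2.06 ± 0.18, adjusted p = 0.000386). The chaperones Hspa8, Hsp90aa1, Hsp90b1 and Calr and the galectin Lgals3 made up the others called higher. Hmgb1, a chromatin protein that alerts immune cells once outside, stood at 425, 623 and 386 CPM in PBS and 255, 246 and 254 CPM in MRC+L (log2 fold change -0.93 ± 0.20, adjusted p = 0.0109) and was not called without MRC+L replicate 2 or 3 (adjusted p = 0.0541 to 0.0566). Anxa1, a ligand that guides phagocytes to dying cells, stood at 620.3, 866 and 539.96 CPM in PBS and 300.2, 313 and 324 CPM in MRC+L (log2 fold change -1.11 ± 0.19, adjusted p = 0.00516). Anxa5 fell by 1.04 on the log2 scale. Annexin, HMGB and S100 genes made up the 11 called lower, and many have short transcripts, for which PBS replicate 2 read high. Leaving out PBS replicate 2, 7 were called higher and 12 lower. RNA levels do not show release or surface exposure. Danger signal genes called higher numbered 3 without MRC+L replicate 1, 2 or 3 or PBS replicate 1.

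Ligands seen by T and natural killer cells were mostly lower. Among 15 tested members (24 listed), 1 was called higher and 9 lower. Pvr, a ligand of TIGIT and DNAM-1, was the exception at 127, 131 and 147 CPM in PBS and 429, 454 and 413 CPM in MRC+L (log2 fold change 1.68 ± 0.12, adjusted p = 0.000197). Vsir, which encodes VISTA, stood at 16.9, 14.5 and 16.7 CPM in PBS and 2.92, 2.28 and 2.31 CPM in MRC+L (log2 fold change -2.67 ± 0.18, adjusted p = 0.00017). Lgals9, galectin 9, stood at 275, 355 and 248 CPM in PBS and 66.7, 57.5 and 63.7 CPM in MRC+L (log2 fold change -2.23 ± 0.17, adjusted p = 0.000242). Cd276, or B7-H3, fell by 0.77 on the log2 scale. Cd274, which encodes PD-L1, was low at 10.3, 8.38 and 7.396 CPM in PBS and 5.68, 5.16 and 5.15 CPM in MRC+L (log2 fold change -0.71 ± 0.19, adjusted p = 0.0229). Cd274 was not called without MRC+L replicate 1, 2 or 3 or PBS replicate 1 (adjusted p = 0.059 to 0.0929). Checkpoint and ligand genes called higher numbered 2 without PBS replicate 2 and 3 without PBS replicate 3.

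Cytokine genes split, with Il6 and Il11 higher and several chemokines lower. Among 35 tested members (41 listed), 5 were called higher and 16 lower, against 16.6% and 19.8% of all tested genes. The share called higher was thus not above that over all genes. Il6 stood at 1.09, 1.35 and 0.808 CPM in PBS and 12.4, 13.5 and 13.3 CPM in MRC+L (log2 fold change 3.58 ± 0.22, adjusted p = 0.000121), and Il11 at 7.23, 9.84 and 6.46 CPM in PBS and 51.3, 60.3 and 60.96 CPM in MRC+L (log2 fold change 2.87 ± 0.19, adjusted p = 0.000177). Il11 and Il6 signal through a shared receptor chain, and both started from low levels. Cx3cl1, fractalkine, stood at 182, 175 and 190.1 CPM in PBS and 34.98, 33.9 and 33.8 CPM in MRC+L (log2 fold change -2.41 ± 0.11, adjusted p = 7.2e-05). Nfkbie, an inhibitor of NF-kB, stood at 50.8, 51.5 and 45.1 CPM in PBS and 16.5, 16.8 and 17.00 CPM in MRC+L (log2 fold change -1.55, adjusted p = 0.000227). Ccl2, Ccl7, Ccl20, Cxcl1 and Cxcl5 were also called lower, with Ccl2 at 117, 157 and 93.8 CPM in PBS and 19.1, 18.2 and 18.1 CPM in MRC+L (log2 fold change -2.73, adjusted p = 0.000232). Lif, another cytokine of the IL-6 family, was called lower (log2 fold change -0.68, adjusted p = 0.00781). NF-kB genes called higher numbered 3 without MRC+L replicate 1 or 3 or PBS replicate 1 and 9 without PBS replicate 2.

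Factors induced by growth and stress signals were called in both directions, also within a family. Among 29 tested members, 11 were called higher and 12 lower. Egr1 stood at 56.1, 44.6 and 62.5 CPM in PBS and 3.57, 2.35 and 3.38 CPM in MRC+L (log2 fold change -4.12 ± 0.22, adjusted p = 0.000102), 17.4-fold lower, and Egr2, Egr3, Fos, Fosb, Ier2, Junb, Klf2 and Klf10 were called lower with it. Jun, the partner of FOS and ATF factors, stood at 134, 116 and 121 CPM in PBS and 295, 334 and 368 CPM in MRC+L (log2 fold change 1.43 ± 0.14, adjusted p = 0.000514). Fosl2, a late member of the FOS family, stood at 59.9, 45.7 and 73.9 CPM in PBS and 234, 250.03 and 217 CPM in MRC+L (log2 fold change 1.97 ± 0.19, adjusted p = 0.000595). Klf4, Klf6, Maff, Mafk and Nr4a2 were called higher. The phosphatases that damp MAP kinases also split. Dusp1, which acts on the stress kinases JNK and p38, stood at 19.1, 22.6 and 19.7 CPM in PBS and 103, 118 and 114 CPM in MRC+L (log2 fold change 2.45 ± 0.13, adjusted p = 7.27e-05), and Dusp8 at 14.2, 13.9 and 14.9 CPM in PBS and 53.3, 56.8 and 54.9 CPM in MRC+L (log2 fold change 1.94, adjusted p = 0.000117). Dusp6, specific for ERK, stood at 177, 131 and 179 CPM in PBS and 64.1, 63.6 and 59.2 CPM in MRC+L (log2 fold change -1.38 ± 0.15, adjusted p = 0.000914), and Spry4, an inhibitor induced by ERK, at 73.2, 53.1 and 78.00 CPM in PBS and 22.8, 22.1 and 19.3 CPM in MRC+L (log2 fold change -1.67, adjusted p = 0.000782). Of all 16 tested feedback genes 4 were called higher (Dusp1, Dusp8, Dusp10, Dusp16) and 8 lower (Dusp5, Dusp6, Dusp7, Dusp14, Spry1, Spry4, Spred1, Spred3). Immediate early genes called lower numbered 7 without MRC+L replicate 2 or 3.

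Ligands of the TGF-beta family were lower for 2 isoforms and higher for 1. Tgfb1 stood at 116, 132 and 103 CPM in PBS and 37.8, 32.1 and 32.1 CPM in MRC+L (log2 fold change -1.78 ± 0.14, adjusted p = 0.000257) and Tgfb3 at 53.4, 50.02 and 51.8 CPM in PBS and 17.6, 16.6 and 16.6 CPM in MRC+L (log2 fold change -1.61 ± 0.11, adjusted p = 0.00018), while Tgfb2 had a log2 fold change of 1.11 (adjusted p = 0.0167). Id1, Id2 and Id3, inhibitors of differentiation factors and targets of BMP signals, were called lower, with Id3 at 49.5, 84.9 and 43.9 CPM in PBS and 15.6, 22.5 and 20.4 CPM in MRC+L (log2 fold change -1.61, adjusted p = 0.00522). In all 4 of 16 tested members (of 23 listed) were called higher and 5 lower, against 16.6% and 19.8% of all tested genes. The median of the list was -0.07, near the -0.04 of all tested genes. TGF-beta and BMP genes called higher numbered 2 without MRC+L replicate 1, 2 or 3 or PBS replicate 1.

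Targets of p53 leaned higher. Among 25 tested members (28 listed), 11 were called higher and 4 lower (median 0.34), against 16.6% and 19.8% of all tested genes. Plk2, a kinase induced by p53 and other stress factors, stood at 45.9, 49.6 and 47.7 CPM in PBS and 496, 556 and 579.95 CPM in MRC+L (log2 fold change 3.51 ± 0.13, adjusted p = 6e-05), 11.4-fold higher and among the genes with the smallest adjusted p. Tigar, which diverts glucose to NADPH production, stood at 8.63, 8.02 and 8.95 CPM in PBS and 24.4, 31.7 and 27.6 CPM in MRC+L (log2 fold change 1.71, adjusted p = 0.000366), and Aen, a nuclease of apoptosis, at 30.1, 26.9 and 29.8 CPM in PBS and 65.6, 83.5 and 76.6 CPM in MRC+L (log2 fold change 1.38, adjusted p = 0.000521). Dglucy went the other way, at 41.1, 32.6 and 43.9 CPM in PBS and 7.89, 7.38 and 6.22 CPM in MRC+L (log2 fold change -2.45 ± 0.17, adjusted p = 0.00019). Cdkn1a, which encodes the cell cycle inhibitor p21, stood at 50.7, 50.7 and 44.4 CPM in PBS and 66.6, 63.6 and 54.9 CPM in MRC+L and was not called with 6 libraries (log2 fold change 0.34 ± 0.13, adjusted p = 0.0672), though the groups did not overlap. Without PBS replicate 2 it was called higher (log2 fold change 0.37, adjusted p = 0.00816). p53 targets called lower numbered 2 without MRC+L replicate 1, 2 or 3 or PBS replicate 1.

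Genes of DNA replication and mitosis were lower or not called. Of the S phase list, 0 of 34 tested members were called higher and 24 lower (median -0.69). Tk1, thymidine kinase, stood at 166, 229 and 152 CPM in PBS and 39.1, 35.00 and 35.7 CPM in MRC+L (log2 fold change -2.32 ± 0.18, adjusted p = 0.000265). Uhrf1, which keeps DNA methylation through replication, stood at 406, 306 and 399 CPM in PBS and 147, 143 and 142 CPM in MRC+L (log2 fold change -1.36 ± 0.15, adjusted p = 0.000776). Lig1, the ligase of the lagging strand, stood at 193, 208 and 199 CPM in PBS and 82.99, 82.2 and 92.7 CPM in MRC+L (log2 fold change -1.22, adjusted p = 0.000466), and Slbp, the histone mRNA binding protein, at 141, 147 and 131 CPM in PBS and 67.6, 67.7 and 69.7 CPM in MRC+L (log2 fold change -1.03, adjusted p = 0.000692). The subunits Mcm2 to Mcm7 of the replicative helicase were all called lower. Of 28 S phase genes with a promoter entry, 5 (17.9%) held the E2F core TTTCCCGC, against 1.24% of all genes. In the 250 bases before the start alone 2 (7.14%) held it, against 1.03%. S phase genes called higher numbered 1 without PBS replicate 2. S phase genes called lower numbered 15 without MRC+L replicate 2.

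Of the mitotic list, 0 of 34 tested members were called higher and 25 lower (median -0.75). Nusap1, a spindle protein, stood at 198, 218 and 196 CPM in PBS and 93.4, 82.8 and 89.2 CPM in MRC+L (log2 fold change -1.21 ± 0.12, adjusted p = 0.000515). Plk1, a mitotic kinase, stood at 218, 204 and 200.1 CPM in PBS and 116, 100.4 and 104.3 CPM in MRC+L (log2 fold change -0.95 ± 0.12, adjusted p = 0.0012), and Ttk, a kinase of the spindle checkpoint, at 100.01, 86.9 and 103.5 CPM in PBS and 44.3, 47.9 and 44.3 CPM in MRC+L (log2 fold change -1.09, adjusted p = 0.000776). No library overlapped for these 3 genes. Mki67, the proliferation antigen Ki-67, stood at 876, 584 and 1125 CPM in PBS and 566, 517 and 493 CPM in MRC+L and was not called with 6 libraries (log2 fold change -0.71 ± 0.24, adjusted p = 0.054). Mki67 has a long transcript, and without PBS replicate 2, where it was lowest in PBS, it was called lower (log2 fold change -0.93, adjusted p = 8.07e-06). Without that library 0 were called higher and 33 lower. Mitotic genes called lower numbered 16 without MRC+L replicate 3. DNA repair genes were lower or not called: 0 of 33 tested members were called higher and 10 lower, against 16.6% and 19.8% of all tested genes. In all 30.3% of the list was called, below the 36.4% of all tested genes. Those called lower included Rad54l (41.3, 33.1 and 37.7 CPM in PBS and 13.8, 17.6 and 14.5 CPM in MRC+L, log2 fold change -1.29, adjusted p = 0.00108) of homologous recombination and Ung (15.3, 17.9 and 13.4 CPM in PBS and 6.06, 5.77 and 8.12 CPM in MRC+L, log2 fold change -1.22, adjusted p = 0.00374), the uracil glycosylase. DNA repair genes called higher numbered 1 without PBS replicate 3 and 2 without PBS replicate 2. DNA repair genes called lower numbered 4 without MRC+L replicate 1 or 3 or PBS replicate 1, 5 without MRC+L replicate 2 and 21 without PBS replicate 2.

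Genes that build ribosomes were higher or not called. Of the ribosome biogenesis list, 21 of 36 tested members were called higher and 0 lower (median 0.61). Bysl, a factor of the small subunit, stood at 42.2, 44.5 and 38.3 CPM in PBS and 95.4, 99.4 and 93.5 CPM in MRC+L (log2 fold change 1.21 ± 0.11, adjusted p = 0.000438). Nop2, a methyltransferase of the large subunit RNA, stood at 133, 154 and 123 CPM in PBS and 275, 276 and 274 CPM in MRC+L (log2 fold change 1.01 ± 0.13, adjusted p = 0.00134). Rrp12 and Wdr43, 2 further nucleolar factors, rose by 1.07 and 0.91 on the log2 scale. Ribosome biogenesis genes called higher numbered 32 without PBS replicate 2. Ribosome biogenesis genes called lower numbered 1 without PBS replicate 2 or 3. Cytosolic tRNA synthetases leaned the same way: 9 of 20 tested members were called higher and 2 lower. Aars, which charges alanine tRNA, stood at 441, 450.4 and 409 CPM in PBS and 962, 975 and 994 CPM in MRC+L (log2 fold change 1.17 ± 0.12, adjusted p = 0.000712), and Wars, for tryptophan, at 155, 154 and 144 CPM in PBS and 303, 283 and 304 CPM in MRC+L (log2 fold change 0.97, adjusted p = 0.000959). Qars and Vars were the 2 called lower. tRNA synthetase genes called lower numbered 0 without MRC+L replicate 1, 2 or 3 or PBS replicate 1.

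Proteins of the ribosome itself gave no call with 6 libraries. By edgeR 0 of 43 tested ribosomal protein genes were called (median -0.17), 0 had an unadjusted p under 0.05, DESeq2 called 0, and limma voom with quality weights called 15 higher and 0 lower. When PBS replicate 2 was left out, 24 were called higher and 0 lower (median 0.26), against 27.1% and 28.2% of all tested genes in that fit. These transcripts are short and their PBS replicate 2 values stood far above the other PBS libraries, as in Rps2 with 401, 919 and 339 CPM in PBS and 356, 374 and 380.00 CPM in MRC+L (log2 fold change -0.58, adjusted p = 0.245). Few proteasome genes were called: 2 of 31 tested members were called higher and 0 lower, the 2 being Psmd11 (157, 150.2 and 168 CPM in PBS and 259.9, 273 and 267 CPM in MRC+L, log2 fold change 0.75, adjusted p = 0.00252) and Psmd1 (log2 fold change 0.44, adjusted p = 0.029), both of the regulatory cap. Psmd1 was not called without MRC+L replicate 1, 2 or 3 or PBS replicate 1 (adjusted p = 0.0764 to 0.122). Proteasome genes called higher numbered 1 without MRC+L replicate 1, 2 or 3 or PBS replicate 1 and 8 without PBS replicate 2. In that last fit 27.1% of all tested genes were called higher, a share near that of the list. Proteasome genes called lower numbered 2 without PBS replicate 2 and 9 without PBS replicate 3.

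Respiratory genes of both genomes were lower or not called. Of 12 tested mitochondrially encoded genes 10 were called lower and 0 higher (median -1.12). All genes with an mt- symbol together, untested ones included, held 2.34 to 2.69% of counts in PBS and 1.56 to 1.61% in MRC+L. Cytochrome b, mt-Cytb, stood at 4553, 4589 and 4107 CPM in PBS and 2228, 2398 and 2274 CPM in MRC+L (log2 fold change -0.94 ± 0.14, adjusted p = 0.00246), and mt-Nd1, of complex I, at 3289, 2878 and 2459 CPM in PBS and 1505, 1475 and 1449 CPM in MRC+L (log2 fold change -0.96 ± 0.16, adjusted p = 0.00371). The most abundant, mt-Co1, stood at 10315, 9841 and 9949.7 CPM in PBS and 7796, 7353 and 7371 CPM in MRC+L and was short of a call (log2 fold change -0.42, adjusted p = 0.0522). It was called lower without PBS replicate 2 (adjusted p = 0.000883). Mitochondrially encoded genes called lower numbered 3 without MRC+L replicate 2 and 4 without MRC+L replicate 1 or 3.

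Among nuclear genes of oxidative phosphorylation 0 of 38 tested members were called higher and 20 lower (median -0.71). All 4 subunits of complex II, Sdha, Sdhb, Sdhc and Sdhd, were called lower. Sdha stood at 274, 261 and 256 CPM in PBS and 163, 152 and 166 CPM in MRC+L (log2 fold change -0.72 ± 0.11, adjusted p = 0.00299), and Sdhc at 129.96, 178 and 109.8 CPM in PBS and 67.6, 62.6 and 67.2 CPM in MRC+L (log2 fold change -1.08, adjusted p = 0.00502). Many subunits of the other complexes are short genes, and without PBS replicate 2 the median was -0.42, with 27 called lower and 2 higher. Oxidative phosphorylation genes called higher numbered 2 without PBS replicate 2. Oxidative phosphorylation genes called lower numbered 3 without MRC+L replicate 2 or 3, 4 without MRC+L replicate 1, 9 without PBS replicate 1 and 32 without PBS replicate 3.

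Genes of cell shape and matrix changed along with these programmes. Of mesenchymal and matrix genes, 1 of 25 tested members (of 36 listed) was called higher and 16 lower (median -0.88). Mmp3, stromelysin 1, stood at 331, 393 and 289 CPM in PBS and 62.6, 72.4 and 68.3 CPM in MRC+L (log2 fold change -2.32 ± 0.16, adjusted p = 0.000174), and Mmp9, gelatinase B, at 224, 211 and 207 CPM in PBS and 73.7, 61.01 and 64.8 CPM in MRC+L (log2 fold change -1.69 ± 0.12, adjusted p = 0.000197). Plau, urokinase, which activates plasminogen, stood at 156, 147 and 138 CPM in PBS and 35.1, 34.4 and 32.6 CPM in MRC+L (log2 fold change -2.11 ± 0.11, adjusted p = 8.4e-05), while its receptor Plaur was the 1 member called higher (log2 fold change 0.48, adjusted p = 0.0383). Plaur lost its call without MRC+L replicate 1, 2 or 3 or PBS replicate 1 or 3 (adjusted p = 0.0713 to 0.149). Mmp13 fell by 1.28 on the log2 scale. Each of the 3 proteases had its PBS libraries close together and far above all MRC+L libraries. Mesenchymal and matrix genes called higher numbered 0 without MRC+L replicate 1, 2 or 3 or PBS replicate 1 and 2 without PBS replicate 2.

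Epithelial genes showed no shared direction. Among 21 tested members (26 listed), 6 were called higher and 7 lower, against 16.6% and 19.8% of all tested genes. Krt8 and Krt18 were called lower, at 307 to 317 and 170 to 182 CPM in MRC+L against the PBS ranges given above, and Elf3, an epithelial factor, stood at 31.5, 44.3 and 32.5 CPM in PBS and 13.1, 12.5 and 12.6 CPM in MRC+L (log2 fold change -1.50 ± 0.17, adjusted p = 0.000938). Grhl2 stood at 0.208, 0.351 and 0.311 CPM in PBS and 5.95, 5.498 and 5.75 CPM in MRC+L (log2 fold change 4.28 ± 0.28, adjusted p = 0.000162), Esrp2, a splicing factor of epithelial cells, at 11.5, 7.67 and 10.3 CPM in PBS and 25.2, 30.2 and 25.6 CPM in MRC+L (log2 fold change 1.46, adjusted p = 0.00149), and Pkp2, of desmosomes, at 16.3, 18.7 and 14.2 CPM in PBS and 34.5, 38.4 and 41.3 CPM in MRC+L (log2 fold change 1.21, adjusted p = 0.00123). Grhl2 and Krt14 were near the detection limit in PBS and seen in all MRC+L libraries. Some markers of other cell types moved as well. Of 19 leukocyte markers listed, 2 were tested, Cd68 and Cd14, and they went opposite ways. Cd68, a lysosomal protein of macrophages, was called higher (log2 fold change 1.00, adjusted p = 0.00941). Cd14 was not called with 6 libraries. It was called lower without PBS replicate 3 (log2 fold change -0.687, adjusted p = 0.0357), and without PBS replicate 2 it was not called (log2 fold change -0.252). Pdgfrb was called lower (log2 fold change -1.63, adjusted p = 0.00207), and Pdgfra was not called (log2 fold change 0.71, adjusted p = 0.0507). Pdgfra was called higher without PBS replicate 2 (log2 fold change 0.485, adjusted p = 0.00195) and without PBS replicate 3 (log2 fold change 0.938, adjusted p = 0.0105). It was not called with any other library left out. The part of these markers in the results was not tested. Epithelial genes called lower numbered 4 without MRC+L replicate 2 or 3 or PBS replicate 1.

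Several lists above had 0 members called on one side by edgeR. At an unadjusted p under 0.05 the count on that side was 1 for interferon-stimulated, MHC class I, S phase, DNA repair and ribosome biogenesis genes. It was 2 for pyroptosis and proteasome genes, and 0 for the unfolded protein response, interferon receptors, mitosis, oxidative phosphorylation and mitochondrially encoded genes. DESeq2 called 1 on that side for interferon-stimulated, MHC class I, pyroptosis, S phase, DNA repair, ribosome biogenesis and proteasome genes, and 0 for the others named. Limma voom with quality weights, which called 9487 genes in all, called 11 proteasome, 5 pyroptosis and 4 DNA repair genes on that side. It called 2 interferon-stimulated, 2 MHC class I, 2 S phase and 2 oxidative phosphorylation genes there. For interferon receptors and ribosome biogenesis it called 1, and for the others named 0. With the gene length trend removed 3 interferon-stimulated genes were called higher, 6 apoptosis regulators in place of 1 and 6 proteasome genes in place of 2, and 16 DNA repair genes were called lower in place of 10.

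**Figure D5:**
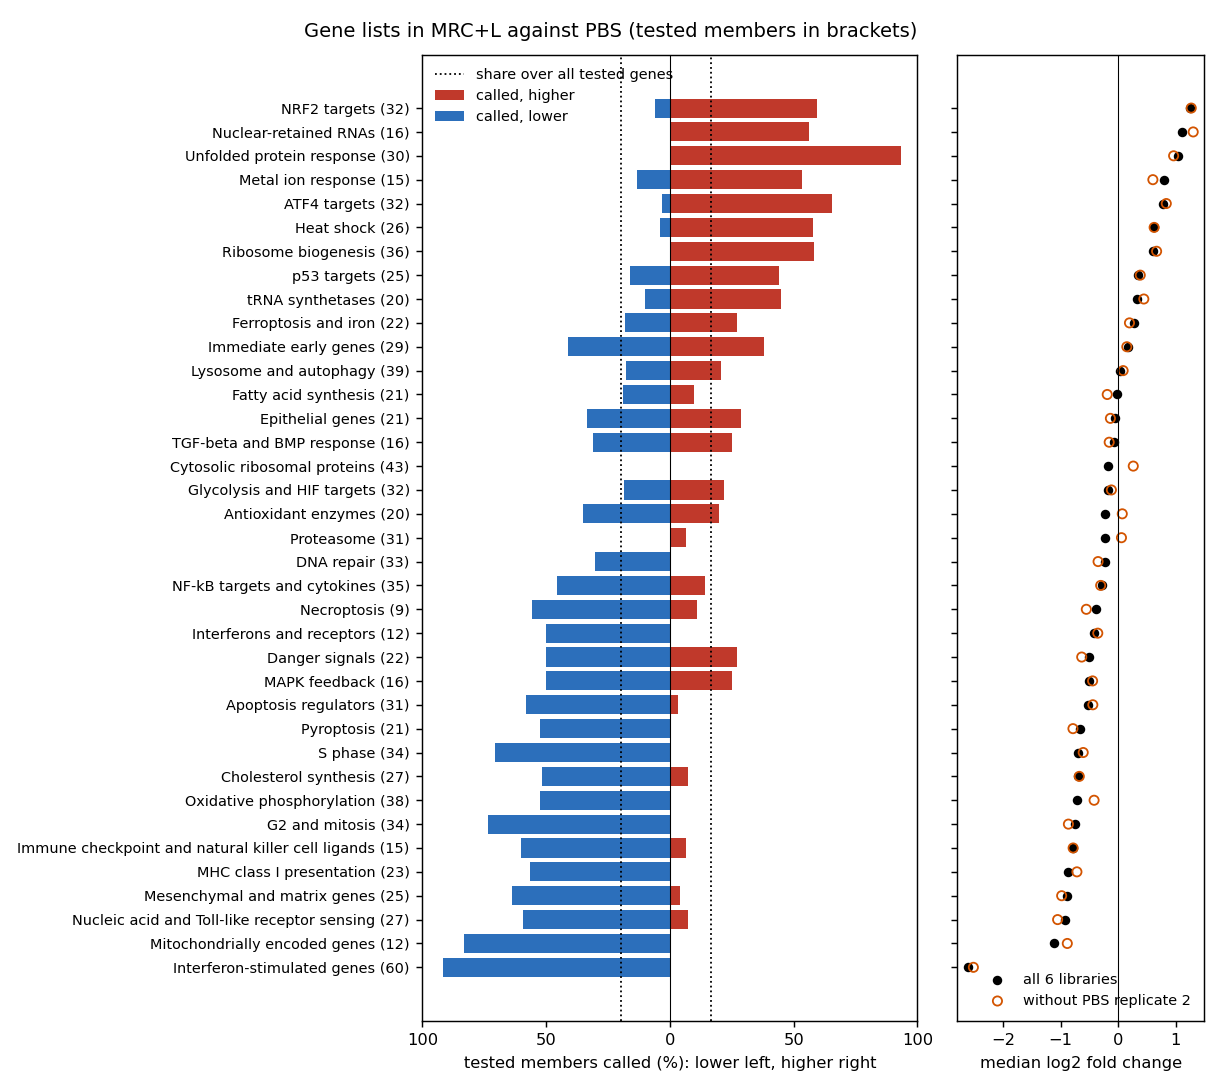
Left, share of tested members of each list called higher (red, to the right) and lower (blue, to the left) in MRC+L against PBS, with dotted lines at the shares over all tested genes, 16.6% and 19.8%. Right, median log2 fold change with all 6 libraries (black) and without PBS replicate 2 (orange ring); among the lists shown the unfolded protein response has the largest red bar (28 of 30) and interferon-stimulated genes the largest blue bar (55 of 60).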

How the data were processed

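Poly-A or other selection is not given in the sources used here; per the labels' protocols RNA was extracted with Trizol and 1 ug of it entered a TruSeq kit. The authors deposited raw counts of read pairs per gene, made per the file headers with featureCounts 2.0.1 on exons of the Ensembl release 104 annotation of GRCm39, without strand and without reads that map to several places. Overlapping, antisense and near-identical genes are therefore uncertain. The aligner is not given in the sources used here.

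Counts of 3 PBS and 3 MRC+L libraries (15019765 to 18998399 each) were fitted in R 4.3.3 with edgeR 4.0.16: TMM factors, filterByExpr (minimum count 10, minimum total 15), robust quasi-likelihood test, Benjamini-Hochberg adjustment over 13131 genes, threshold 0.05, prior count 0.125. The standard error is the log2 fold change divided by the square root of F. The method was run on simulated counts with a PBS spread set below the 0.279 measured and without a gene length trend. That run therefore does not test the fit under the spread and length trend of the PBS libraries. Alternatives were DESeq2 1.42.0, limma 3.58.1 voom with quality weights, RLE and upper quartile factors, other filters, all 9 libraries, removal of the gene length trend, the replicate block, each library left out, and promoters searched over 250 bases alone.

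Genes named were the 12 largest called changes in each direction among protein-coding genes with non-overlapping groups and a mean of at least 5 CPM in the higher group, up to 4 members of each of 39 lists with the smallest adjusted p, a fixed list, and the most abundant; some of these are not reported here, and other list members were named after their values were seen. The members, lists and comparison were chosen with earlier results of these data known. Promoters (250 bases before to 50 after the start) are from RefSeq on GRCm38.p6, and a share over a list was used only where at least 80% of its tested genes had an entry. Gene coordinates are those of the count files.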

Additional observations from a re-analysis of the deposited data

How the results depend on the processing

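The 4781 calls (2183 higher, 2598 lower) became 5731 with DESeq2, 4793 with RLE factors, 4840 with upper quartile factors, 4918 without a count filter, 4452 with a stricter one, 6159 with all 9 libraries and 6033 with the gene length trend removed. With limma voom and quality weights, which lets each library have its own spread, 9487 genes were called, 4692 higher and 4795 lower; the cause was not tested. Leaving out 1 library gave 2602 to 7464 calls, 1177 to 3654 higher and 1421 to 3810 lower, and 1744 to 2966 calls of at least 2-fold in place of 2278. The lowest values came without an MRC+L library and the highest count of calls without PBS replicate 2. The labels do not say whether a replicate number marks a shared culture or day. Same-numbered PBS and MRC+L libraries had deviations correlated at 0.044, -0.109 and -0.19 over genes, and differently numbered ones at -0.084 to 0.187. With 3 libraries per group and the length trend of PBS replicate 2, these values cannot decide whether the samples were paired. With the replicate block 3556 genes were called, and 5226 with the block and the length trend removed. Of the 199 genes named by rule, no called one changed sign under these settings, while Casp1, Casp4, Gsdme and other uncalled ones did; 4 lost their call under the block, and 8, 13 and 12 without MRC+L replicate 1, 2 and 3. The list medians of antioxidant enzymes, ribosomal proteins and proteasome genes turned positive without PBS replicate 2. Searching 250 bases alone left the motif shares at 26.9% (antioxidant element), 34.6% (stress element), 22.2% (ATF4 core), 9.52% (heat shock element) and 7.14% (E2F core). With 15019765 to 18998399 counts a gene without a count in a library could have had up to 0.156 to 0.201 CPM there.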

Other observations

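Sterol synthesis genes were mostly lower. Among 27 tested members (29 listed), 2 were called higher and 14 lower (median -0.70, all tested genes -0.04). Idi1, Hmgcs1, Fdps and Cyp51 of the mevalonate and sterol pathway had log2 fold changes of -1.59, -1.11, -0.70 and -0.48. Hmgcs1, which makes HMG-CoA, stood at 89.5, 83.5 and 96.6 CPM in PBS and 45.7, 40.4 and 38.3 CPM in MRC+L (log2 fold change -1.11 ± 0.12, adjusted p = 0.000851). Sqle, squalene epoxidase, stood at 127, 103 and 123 CPM in PBS and 165, 162 and 162 CPM in MRC+L (log2 fold change 0.47, adjusted p = 0.0224), and Abcg1, a cholesterol exporter, at 18.98, 16.9 and 24.2 CPM in PBS and 57.7, 57.3 and 56.9 CPM in MRC+L (log2 fold change 1.52, adjusted p = 0.000736). Both were called higher with 6 libraries. Without MRC+L replicate 1, 2 or 3 or PBS replicate 1, Abcg1 was called and Sqle was not (adjusted p = 0.0584 to 0.0879). Sterol genes called higher numbered 1 without MRC+L replicate 1, 2 or 3 or PBS replicate 1. Sterol genes called lower numbered 9 without MRC+L replicate 2 or 3.

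Genes of fatty acid synthesis had a share called lower near that over all genes: 2 of 21 tested members (of 22 listed) were called higher and 4 lower, against 16.6% and 19.8% of all tested genes. Elovl6, an elongase, stood at 184, 126 and 209 CPM in PBS and 99.05, 96.1 and 94.4 CPM in MRC+L (log2 fold change -0.84, adjusted p = 0.0139), and Dgat2, which makes triglyceride, at 16.1, 12.5 and 11.7 CPM in PBS and 28.6, 24.7 and 26.5 CPM in MRC+L (log2 fold change 0.99, adjusted p = 0.00393). Fatty acid genes called higher numbered 1 without MRC+L replicate 1 or 2 and 5 without PBS replicate 2. Fatty acid genes called lower numbered 0 without MRC+L replicate 2 or 3, 1 without PBS replicate 1, 2 without MRC+L replicate 1 and 9 without PBS replicate 2.

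Of glycolysis and HIF targets, 7 of 32 tested members were called higher and 6 lower, shares near those over all tested genes (16.6% and 19.8%). Ndrg1, a target of HIF, stood at 729, 802 and 706 CPM in PBS and 2757, 2389.8 and 2545 CPM in MRC+L (log2 fold change 1.78, adjusted p = 0.000249) and Adm, adrenomedullin, at 2.96, 4.45 and 2.98 CPM in PBS and 16.9, 6.97 and 8.53 CPM in MRC+L (log2 fold change 1.64, adjusted p = 0.0146). Hk1, hexokinase, stood at 230.5, 210.03 and 216 CPM in PBS and 145, 117 and 119 CPM in MRC+L (log2 fold change -0.78, adjusted p = 0.00399). Glycolysis and HIF genes called lower numbered 2 without MRC+L replicate 2 or 3 or PBS replicate 1, 10 without PBS replicate 2 and 11 without PBS replicate 3.

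In the lysosome and autophagy list, 8 of 39 tested members (of 40 listed) were called higher and 7 lower, again near the 16.6% and 19.8% of all tested genes. Sqstm1, or p62, a cargo receptor of autophagy and an NRF2 target, stood at 744, 1025 and 653 CPM in PBS and 3452, 3961 and 4021 CPM in MRC+L (log2 fold change 2.24, adjusted p = 0.000514) and Tax1bp1, another such receptor, at 164, 157 and 165 CPM in PBS and 235, 245 and 249 CPM in MRC+L (log2 fold change 0.58, adjusted p = 0.00587). Tfeb, a factor of lysosomal genes, was called lower (18.8, 21.5 and 12.6 CPM in PBS and 8.33, 8.11 and 6.69 CPM in MRC+L, log2 fold change -1.19, adjusted p = 0.00721). Lysosome and autophagy genes called higher numbered 16 without PBS replicate 2, where 27.1% of all tested genes were called higher. Lysosome and autophagy genes called lower numbered 3 without MRC+L replicate 2 or 3 or PBS replicate 1 and 4 without MRC+L replicate 1.

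Long RNAs kept in the nucleus and hosts of small nucleolar RNAs were higher or not called. Among 16 tested members (19 listed), 9 were called higher and 0 lower by edgeR (median 1.10), with 1 lower at an unadjusted p under 0.05 and 0 by DESeq2. Malat1, an abundant nuclear RNA, stood at 369, 235 and 461 CPM in PBS and 942, 1094 and 1035 CPM in MRC+L (log2 fold change 1.53 ± 0.25, adjusted p = 0.004). Snhg12 stood at 14.8, 32.7 and 12.2 CPM in PBS and 95.8, 117 and 121 CPM in MRC+L (log2 fold change 2.48, adjusted p = 0.00283), and Gas5 at 210.4, 374 and 203 CPM in PBS and 556, 645 and 657 CPM in MRC+L (log2 fold change 1.24, adjusted p = 0.01). Without PBS replicate 2, 12 were called higher and 2 lower.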
